A study of Mus musculus with 12 samples.

Results

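The Schlafen family was described here through 6 genes, Slfn1, Slfn2, Slfn4, Slfn5, Slfn8 and Slfn9, which were chosen by name. A further member, Slfn3, was also listed in all 12 libraries and is given beside them. The 6 are among 14275 genes listed in any of 12 RNA sequencing libraries. The libraries came from BV-2, a single immortalised line of mouse microglia, and formed 4 groups of 3: control, LPS (lipopolysaccharide, a bacterial surface molecule sensed through the receptor TLR4), NMN (nicotinamide mononucleotide, a precursor of NAD) and LPS+NMN. The stated aim was to follow how NMN acts on ferroptosis, an iron-dependent form of cell death, in cells given LPS. Doses and times are not given in the sources used here, and no genotype or transgene is named for any group. The labels call the cells macroglia, but 10 of 12 microglia and macrophage markers were listed in all 12 libraries, and the astrocyte genes Aqp4, Aldh1l1 and Slc1a3 were listed in none.

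Schlafen genes took their name from the German word for sleeping, because the first members described held T cells in a resting state. All share an N-terminal core, and the long members add a helicase-like part at the C-terminal end. Many are induced by type I interferon and by bacterial products in macrophages, and several act on tRNA and on translation. The 6 genes span the size classes: Slfn1-201 and Slfn2-201, the short members, encode 337 and 378 amino acids, Slfn4-201, an intermediate member, encodes 602, and Slfn5-201, Slfn8-201 and Slfn9-201, the long members, encode 884, 910 and 910 (GENCODE M21). All lie in 1 cluster with Slfn3 and Slfn14 on chromosome 11, from 82951349 to 83286726 on GRCm38, which spans 335378 bases and holds 8 protein-coding genes. In that annotation Slfn5 occupies chr11:82951349-82964840 (+), Slfn9 chr11:82978390-82991830 (-), Slfn8 chr11:83002158-83020810 (-), Slfn2 chr11:83065112-83070678 (+), Slfn1 chr11:83116849-83122670 (+) and Slfn4 chr11:83175186-83190216 (+).

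What was measured is the number of distinct transcript events listed for a gene in a library: first exons, last exons, and splicing events (a skipped exon, a skipped run of exons, a retained intron or an exon with alternative ends). A splicing event is listed where forms with and without the feature were both assembled, so it records that they occurred together and not how much of either was made. The number of events is not a number of separate choices. Each alternative end of an exon is an event of its own, and exact and approximate listings of an event are counted separately. The catalogues hold no read count, so the depth is unknown, and an event that is not listed may still occur. A gene with 0 events may be silent, too thinly covered, or present only as a form without an intron. The libraries listed 50784 to 55787 distinct events over 11911 to 12246 genes, with the highest number in control 1. The 6 genes accounted for 78 of the 141591 distinct events of the whole series.

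The promoters of Slfn4, Slfn5, Slfn1 and Slfn2 are shown because the first 3 were listed with more events in every LPS library than in any control library (for Slfn1 in LPS 2 on the opposite strand only), and Slfn2, a neighbour of the same family, was not. Each covers the 230 bases from 250 to 21 bases before the RefSeq start on GRCm38.p6, 5′ to 3′ on the gene's strand. Capitals mark AANNGAAA on either strand, the core that interferon regulatory factors contact. They also mark the heart of the interferon-stimulated response element, searched as 2 copies of GAAA with any 2 bases between them, which can overlap the first.
Slfn4 promoter, chr11:83174936-83175165 (+): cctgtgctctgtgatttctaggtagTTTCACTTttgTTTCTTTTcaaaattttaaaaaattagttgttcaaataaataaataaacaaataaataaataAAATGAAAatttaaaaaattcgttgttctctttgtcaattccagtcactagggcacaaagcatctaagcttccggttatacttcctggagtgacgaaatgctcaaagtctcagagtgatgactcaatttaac
Slfn5 promoter, chr11:82951852-82952081 (+): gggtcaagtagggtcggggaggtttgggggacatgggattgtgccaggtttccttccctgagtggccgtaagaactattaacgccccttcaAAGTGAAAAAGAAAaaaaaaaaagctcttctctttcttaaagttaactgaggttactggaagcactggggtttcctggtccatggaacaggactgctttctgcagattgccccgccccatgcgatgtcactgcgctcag
Slfn1 promoter, chr11:83116570-83116799 (+): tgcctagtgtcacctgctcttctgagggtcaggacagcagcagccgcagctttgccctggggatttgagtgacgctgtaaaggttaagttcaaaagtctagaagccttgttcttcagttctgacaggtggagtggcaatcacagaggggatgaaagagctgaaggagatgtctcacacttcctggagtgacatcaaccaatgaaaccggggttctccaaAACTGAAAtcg
Slfn2 promoter, chr11:83064862-83065091 (+): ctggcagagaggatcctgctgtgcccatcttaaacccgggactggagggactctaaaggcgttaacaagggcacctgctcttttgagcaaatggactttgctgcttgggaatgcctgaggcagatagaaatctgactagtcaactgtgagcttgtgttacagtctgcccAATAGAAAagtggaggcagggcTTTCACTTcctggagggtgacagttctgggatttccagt

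The paired GAAA motif was present in the windows of Slfn5, Slfn8 and Slfn9, and its letters were not found in those of Slfn1, Slfn2 and Slfn4. Of 32851 mouse promoter windows of this length, 895 (2.72%) held it on either strand. In Slfn5 it lay 155 to 146 bases before the start, and in Slfn9 and Slfn8 it lay on the other strand, from 45 and 48 bases before the start. The word AANNGAAA occurred in the windows of all 6 genes and in 19.9% of all windows, with 3 matches in Slfn4, 2 in Slfn5, 2 in Slfn2 and 1 in Slfn1. These matches are letters in a window, and binding was not measured.

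The 6 genes summed were listed with more events in the 2 groups that received LPS, while Slfn3, outside the sum, had 3 events in every control and LPS library. The 6 genes came to 14, 16 and 14 events in the control libraries 1 to 3, 35, 37 and 33 in the LPS libraries, 20, 21 and 26 in the NMN libraries, and 31, 31 and 33 in the LPS+NMN libraries. No treated library reached down to the control range, and the NMN libraries lay between control and the groups given LPS. Splicing events of the 6 genes were 4, 5 and 0 in control, 19, 19 and 18 with LPS, 6, 8 and 12 with NMN, and 15, 14 and 17 with LPS+NMN. Slfn4 alone held 14.3 to 37.5% of the 6 genes' events in control and 45.7 to 48.5% in LPS. Of 76 distinct patterns, with exact and approximate forms of an event taken as 1, 40 were listed in a single library, 4 in all 12, and 9 in all 3 LPS libraries and no control library.

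**Figure D1:**
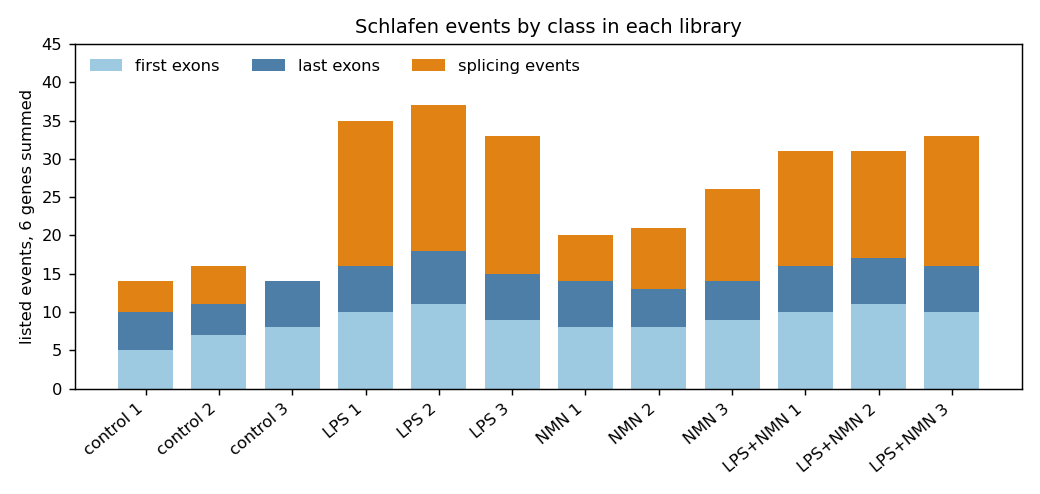
Listed events of the 6 Schlafen genes in each library, as stacked bars from 0: first exons, last exons and splicing events. The splicing part is 18 to 19 events in the LPS libraries and 0 to 5 in the control libraries, while first exons range from 5 to 11 and last exons from 4 to 7 over all libraries.

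Slfn4 was the only one of the 6 genes whose number of events passed the test against control with LPS. Slfn4 is a myeloid member, known in mice to be induced in macrophages by Toll-like receptor signals and interferon. It had 2, 6 and 4 events in the control libraries, 16, 17 and 16 with LPS, 5, 7 and 12 with NMN, and 13, 12 and 14 with LPS+NMN. All LPS and all LPS+NMN libraries lay above every control library, and the NMN libraries overlapped control at the low end and LPS+NMN at the high end. The LPS mean of 16.3 ± 0.577 (SD, n = 3) stood against 4 ± 2 in control, a rise of 1.88 ± 0.31 (SE) in log2(events + 1), with an adjusted p of 0.0239 by limma over 11671 genes tested. Over all genes 0.3% were called in this comparison at an adjusted p of 0.05, and of the 6 Schlafen genes 1 was called. In bulk RNA, more cells transcribing a gene and more transcript forms per cell cannot be told apart. With no read counts, neither can be told apart from a fuller assembly of a gene with more RNA.

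The call for Slfn4 rested on few libraries and on how events were counted. It was lost without control 3 (adjusted p = 0.0642), LPS 1 (0.0709), LPS 2 (0.1065) or LPS 3 (0.0764), while the difference stayed between 1.55 and 2.16 over the libraries left out 1 at a time. It was also lost when an exact and an approximate listing of an event counted once (1.41, limma adjusted p = 0.0914). With splicing events alone the difference was 3.21 (limma adjusted p = 0.052), and with first and last exons alone it was -0.14 (limma adjusted p = 0.818), so the rise lay in the splicing events. Markers of neutrophils, another myeloid cell type, were read beside it: the 7 markers summed to 4 to 8 events in control and 4 to 8 in LPS, and Ly6g and Ngp were listed nowhere. Of the others, S100a8 was listed in all 12 libraries and Elane in 3 control and 2 LPS libraries, whereas Camp, which encodes the antimicrobial peptide cathelicidin, was listed in 0 control, 3 LPS, 2 NMN and 3 LPS+NMN libraries. S100a9 was listed in 2 control and 1 LPS libraries and Mpo in 1 control and 0 LPS libraries. Their part in the Slfn4 result was not tested.

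**Figure D2:**
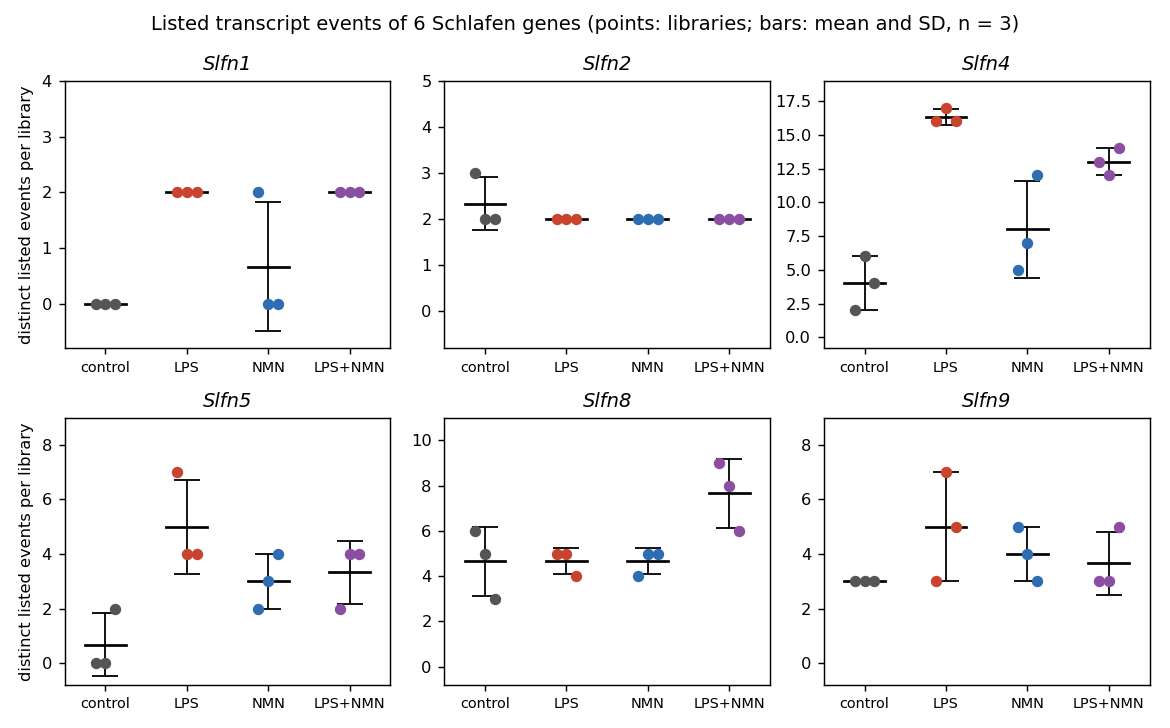
Distinct listed events per library for each Schlafen gene, with the group on the horizontal axis; points are libraries, thick bars the mean and thin bars the SD (n = 3). Slfn4 has 16 to 17 events with LPS and 2 to 6 in control, Slfn1 has 0 in all control libraries, and Slfn8 has 6 to 9 with LPS+NMN and 3 to 6 in control.

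The most regular Slfn4 event was the joint skipping of exons 6 and 7 of Slfn4-201. It spanned 2297 bases from 83076094 to 83078390 in the files' coordinates and was listed in all 9 treated libraries and in no control library. Each control library, and LPS 2, listed a Slfn4 first exon that began inside the gene. Whether the skip was absent in control or only not assembled there is not given by the catalogues. The files' coordinates differ from GRCm38 by a constant across this cluster, so exons were recognised by shifting them by 109174 bases. At that shift 46 of 71 distinct edges of the family's events fell on annotated Schlafen exon edges, against 0 unshifted and 4 at the next best shift. Of 106 first-exon listings of the 6 genes, 71 had both ends of an annotated first exon of the same gene. Exon 6 (179 bases) was also skipped alone, with exon 5 joined to exon 7, in control 2, LPS 2, NMN 3 and all 3 LPS+NMN libraries. A further event listed exon 7 (1040 bases) as skipped between exons 5 and 8, in LPS 2, NMN 3 and all 3 LPS+NMN libraries. Both forms of that event lack exon 6, and its skipped form joins exon 5 to exon 8, as the joint skip does. It was thus listed in 3 of 3 LPS+NMN libraries, 1 of 3 LPS libraries and no control library.

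These exons carry the start of the Slfn4 protein. Exon 6 holds the annotated start codon, and exons 6 and 7 together hold 1177 of the 1806 coding bases of Slfn4-201 (65.2%). The annotated transcript Slfn4-203 joins exon 5 to exon 8 in the same way, and its reading frame of 627 bases (209 amino acids) opens at an ATG in exon 8 that is in frame with that of Slfn4-201. The coding part of exon 6, and the first 60 coding bases of Slfn4-203, are shown to mark both start codons (capitals), from GENCODE M21 on GRCm38.
Exon 6 of Slfn4-201 from its start codon, chr11:83185310-83185446 (+): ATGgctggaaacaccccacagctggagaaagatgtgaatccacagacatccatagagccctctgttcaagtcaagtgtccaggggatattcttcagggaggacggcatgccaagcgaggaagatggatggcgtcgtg
Last exon of Slfn4-203 from its start codon, chr11:83188665-83188724 (+): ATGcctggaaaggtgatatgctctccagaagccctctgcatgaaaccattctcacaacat
Which of the 2 forms predominated in any library is not given by the catalogues, and no protein was measured.

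**Figure D3:**
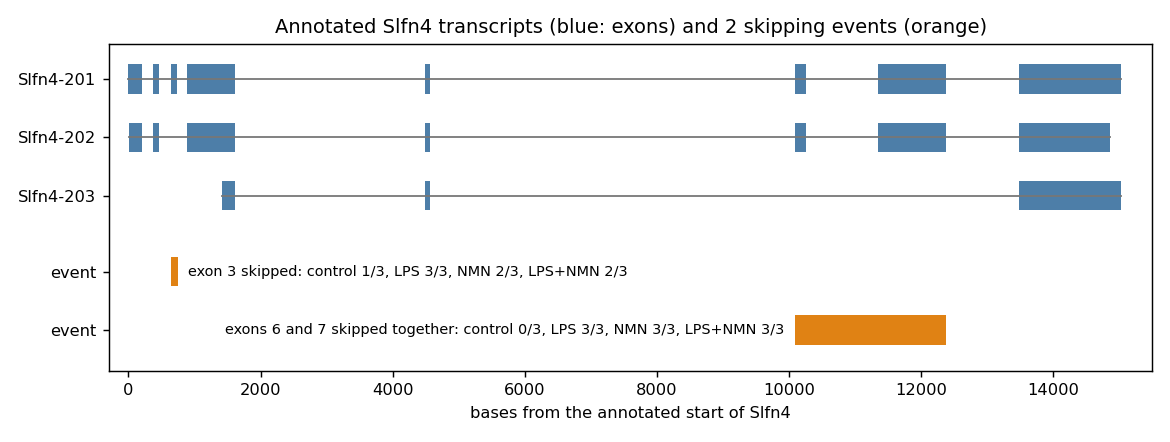
Annotated Slfn4 transcripts drawn to scale, with exons in blue along the distance in bases from the gene's start, and 2 skipping events in orange with the number of libraries listing each. The cassette of exons 6 and 7 is listed in 9 treated and 0 control libraries and matches the gap between the last 2 exons of Slfn4-203; exon 3 skipping is listed in 1 control library and 7 treated libraries.

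The other Slfn4 splicing events lay in the exons before the start codon, which are untranslated. Exon 3 was listed with 2 ends, an annotated one giving 86 bases and another giving 106 bases that GENCODE M21 does not contain. This choice was listed in LPS 1 to 3, NMN 2, NMN 3 and LPS+NMN 1 to 3 and in no control library. The end of the 106-base form, 83066759, was however also the end of the first exon in control 1. The 86-base form of exon 3 was skipped in control 2 and in 7 treated libraries. Exon 4 was listed with starts giving 729, 723 and 623 bases in LPS 1, LPS 3 and LPS+NMN 3. The last exon starting at 83079489 was listed in all 12 libraries, and the first exon ending at 83066219 in 11 (in control 1 the first exon ended at 83066759 instead). That first exon began 8 and 31 bases after the RefSeq start in control 2 and control 3, and 0 to 305 bases before it in the 9 treated libraries, a difference noticed after the values were seen and not tested. First exons ending further inside the gene were listed at 83070582 in control 2, at 83078390 in control 3, and at 83067625 in control 3 and LPS 2. Slfn4 shares 8.15% of its 50-base words with other Schlafen transcripts and 6.28% with Slfn3, so some reads may have been assigned between them.

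**Figure D4:**
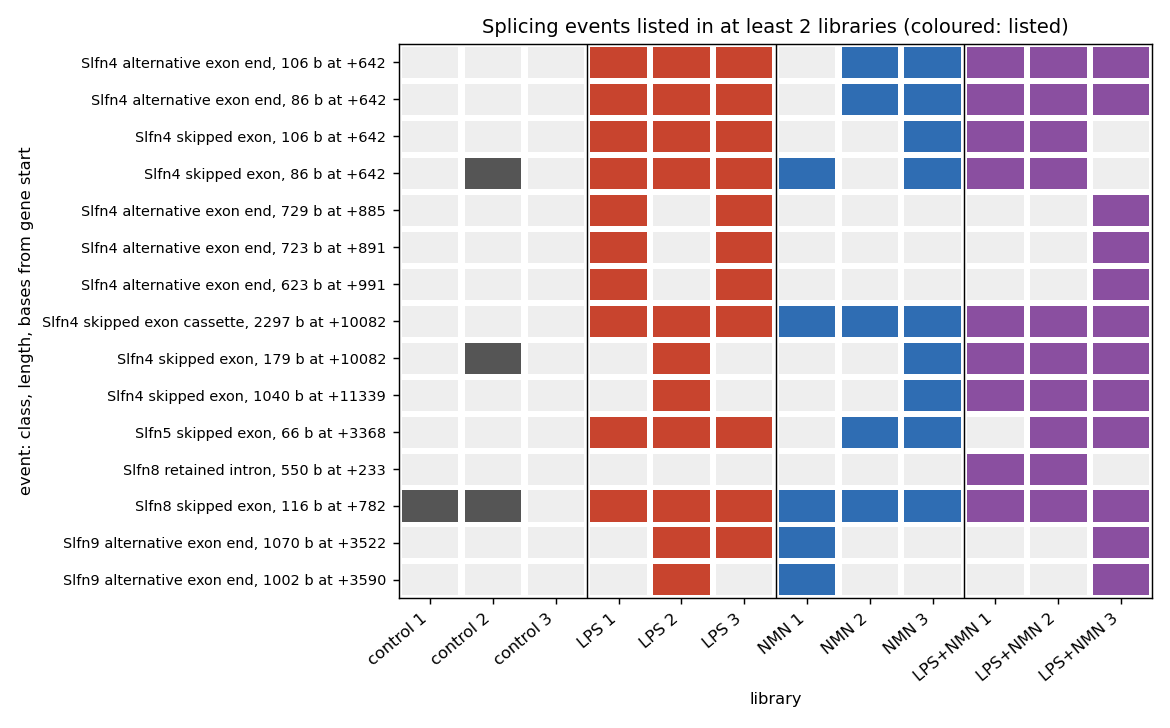
Splicing events of Slfn4, Slfn5, Slfn8 and Slfn9 listed in at least 2 libraries, with libraries in columns and events in rows (class, length in bases, and bases from the annotated gene start); a coloured cell means listed. The Slfn4 cassette fills all 9 treated columns and no control column, whereas the 116-base Slfn8 exon is listed in 11 libraries.

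Slfn5, a long, nuclear and interferon-inducible member, was listed with its annotated first exon only in treated libraries. It had 0, 0 and 2 events in control, 7, 4 and 4 with LPS, 2, 3 and 4 with NMN, and 2, 4 and 4 with LPS+NMN. Every LPS library lay above every control library, while NMN and LPS+NMN each touched control at 2 events. The LPS difference was 2.02 ± 0.40 (SE) with a limma adjusted p of 0.0777, and it did not pass. Without control 3 the same gene passed in all 3 comparisons with control: the difference was 2.55 with LPS (limma adjusted p = 0.0077), 1.97 with NMN (0.0143) and 2.08 with LPS+NMN (0.014).

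The Slfn5 entry of control 3 held no complete transcript. Its first exon there ended at 82851554, where exon 5 of Slfn5-201 ends, and matched no annotated start, whereas the first exon ending at 82843021 was listed in 9 of 9 treated libraries and no control library. In those 9 libraries it began 0 to 116 bases before the RefSeq start used for the promoter printed above. A second annotated start, ending at 82845608, was listed in all 3 LPS libraries, NMN 3, LPS+NMN 2 and LPS+NMN 3. The 66-base exon 2 of Slfn5-201, which lies before the start codon, was skipped in all 3 LPS libraries, 2 NMN libraries and 2 LPS+NMN libraries. LPS 1 alone listed a retained intron, with a span of 202 bases that includes the edge base of the exon on each side. Slfn5 shares 0% of its 50-base words with other Schlafen transcripts.

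Slfn1, a short member first described in T cells, was absent from the control catalogues. It had 0 events in all 3 control libraries, 2 in all 3 LPS libraries, 2, 0 and 0 in the NMN libraries, and 2 in all 3 LPS+NMN libraries. LPS and LPS+NMN did not overlap control, and in NMN only library 1 listed the gene. The difference from control was 1.58 ± 0.40 (SE) with LPS (limma adjusted p = 0.18) and 1.58 with LPS+NMN (0.206), and neither passed. The 2 events of LPS 2 were on the opposite strand, between 83010474 and 83030639, with no annotated Slfn1 edge, so a Slfn1 transcript on its own strand was listed in 2 of 3 LPS libraries and 3 of 3 LPS+NMN libraries. Counting own-strand events alone, the LPS difference was 1.06 (limma adjusted p = 0.682).

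Slfn2, which keeps T cells and monocytes quiescent in mice, was listed in every library at almost the same number. It had 3, 2 and 2 events in control and 2 in each of the 9 treated libraries. The group differences from control were -0.14 ± 0.14 (SE; limma adjusted p = 0.851 with LPS). The extra event of control 1, a skipped exon of 135 bases, and both events of control 3 were on the opposite strand. With own-strand events alone the sign turned, to 0.53 in each comparison with control (limma adjusted p of 0.785 with LPS, 0.822 with NMN and 0.791 with LPS+NMN). In NMN 1 the Slfn2 transcript ran from 82954756 to 83111223, over 156468 bases; its last exon began at 83105314, where the last exon of Slfn3 begins, and ran past 83105980, where that of Slfn3 ended in the same library.

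Slfn8, a long member, was the only one of the 6 with more events in every LPS+NMN library than in any LPS library. It had 6, 5 and 3 events in control, 5, 5 and 4 with LPS, 4, 5 and 5 with NMN, and 9, 8 and 6 with LPS+NMN. LPS+NMN lay above the LPS and NMN libraries and touched control at 6 events. The difference of LPS+NMN from LPS was 0.60 ± 0.22 (SE; limma adjusted p = 0.868), and that from control was 0.64 ± 0.22 (limma adjusted p = 0.419), and neither passed. First exons ending at 82910739 and 82911403 were listed in all 12 libraries. Their lengths were the annotated ones, except that in control 1 the first exon ending at 82910739 had 898 bases in place of 196.

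The additional Slfn8 events of LPS+NMN lay at its 5′ end. A first exon ending 784 bases before the annotated gene start, at 82912420, was listed in all 3 LPS+NMN libraries and no other. Another, ending at 82913703, 2067 bases before the gene start, was listed in LPS 1, LPS 2, NMN 3, LPS+NMN 1 and LPS+NMN 2. Neither is a Slfn8 exon in GENCODE M21. The intron between the upstream annotated first exon and exon 2 was listed as retained in LPS+NMN 1 and LPS+NMN 2, in no other library. Its listed span of 550 bases includes the edge base of the exon on each side. Control 1 listed a first exon of 898 bases that covers this intron, so the unspliced stretch was not limited to LPS+NMN. The 116-base exon 2 of Slfn8-201 was skipped in all libraries except control 3.

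Slfn9, the neighbour of Slfn8 and of the same length, had 3, 3 and 3 events in control, 3, 7 and 5 with LPS, 5, 4 and 3 with NMN, and 3, 3 and 5 with LPS+NMN. Each treated group reached down to the control value of 3, and the LPS difference of 0.53 ± 0.26 (SE; limma adjusted p = 0.672) did not pass. A group difference appeared in the length of a first exon rather than in the number of events. The first exon ending at 82881768 was listed in all 12 libraries, at its annotated 196 bases in 9 of them and at 854 to 874 bases in LPS 1, LPS 2 and LPS 3. The longer form covers the 450 bases between the 2 annotated Slfn9 first exons. Event numbers do not register it, and it was noticed after the values were seen, with no test.

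The second exon of Slfn9, of 1070 bases, holds the start codon, and LPS 2, NMN 1 and LPS+NMN 3 also listed a form of 1002 bases. That form lacks 68 bases at the 5′ end, 7 before the start codon and 61 coding. The sequence from the start codon is shown with the lost coding bases in capitals, from GENCODE M21 on GRCm38.
Exon 2 of Slfn9-201, chr11:82988211-82988301 (-): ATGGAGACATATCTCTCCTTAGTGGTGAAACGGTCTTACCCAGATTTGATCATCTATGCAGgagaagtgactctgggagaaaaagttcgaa
NMN 2 listed the skipping of the whole exon. Slfn8 shares 14.6% and Slfn9 11.2% of their 50-base words with other Schlafen transcripts, so reads of these 2 genes may have been assigned between them and the pseudogene Slfn10-ps. Slfn10-ps was not listed under its own name. At the shift given above, 2 events listed under other members lay within it, on its strand. These were a first exon of Slfn8 in NMN 2, ending at 82930662, and the 135-base skipped exon of Slfn2 in control 1.

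In LPS against control, 3 of the 6 genes (Slfn1, Slfn4 and Slfn5) had every LPS library above every control library and none the reverse, where over all genes tested 2.52% were higher and 2.69% lower in this way. For Slfn1 this rests on the opposite-strand events of LPS 2: on its own strand that library has 0 events, as in control, which leaves Slfn4 and Slfn5. Slfn1 and Slfn5 met the filter for testing only through treated libraries, where they have more events. In LPS+NMN against control, 2 were higher (Slfn1 and Slfn4) and none lower, against 2.57% and 2.48% of all genes. In NMN against control none of the 6 separated in either direction, against 2.16% and 2.35%. The comparisons with control share the same 3 control libraries. The median difference of the 6 genes was 1.06 with LPS, 0.42 with NMN and 1.09 with LPS+NMN, where the median of all genes tested was 0 in each.

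NMN alone called none of the 6 genes, against 0.231% of all genes. The largest NMN difference was that of Slfn5, 1.44 ± 0.40 (SE; limma adjusted p = 0.341), and that of Slfn4 was 0.86 ± 0.31 (0.544). LPS+NMN against control also called none of the 6, against 0.334% of all genes, with Slfn4 at 1.57 ± 0.31 (SE; limma adjusted p = 0.0808) and Slfn5 at 1.55 ± 0.40 (0.223). Slfn4 in this comparison passed without control 2 (limma adjusted p = 0.023) and without NMN 3 (0.0344).

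Adding NMN to LPS moved no Schlafen gene past the test. LPS+NMN against LPS called 0 of 11671 genes (0%) by limma, with 521 at an unadjusted p under 0.05 and 6 called without trend and robust moderation. Slfn4 had 12 to 14 events with LPS+NMN and 16 to 17 with LPS, so the groups did not overlap, and the difference was -0.31 ± 0.31 (SE; limma adjusted p = 0.93). Slfn8 was the one gene higher without overlap and Slfn4 the one lower, against 1.8% and 1.42% of all genes. Slfn5 differed by -0.47 ± 0.40 (SE; limma adjusted p = 0.93) and Slfn1 by 0.

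LPS+NMN against NMN likewise called 0% of all genes by limma, with 531 at an unadjusted p under 0.05 and 6 called without trend and robust moderation. Slfn4 was higher by 0.71 ± 0.31 (SE; limma adjusted p = 0.938) and Slfn1 by 1.06 ± 0.40 (0.938), with overlapping libraries in both. Slfn8 was the only member separated without overlap, upward, where 1.53% of all genes were higher and 1.62% lower.

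The interaction, the part of the LPS+NMN difference from control that the sum of the LPS and NMN differences leaves over, called none of the 6 genes and 0.0428% of all genes. It was -1.17 ± 0.44 (SE; limma adjusted p = 0.68) for Slfn4 and -1.91 ± 0.56 (0.509) for Slfn5. The order of the Slfn4 groups was LPS, LPS+NMN, NMN and control. LPS+NMN and NMN shared the value 12, and NMN and control overlapped between 5 and 6 events.

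**Figure D5:**
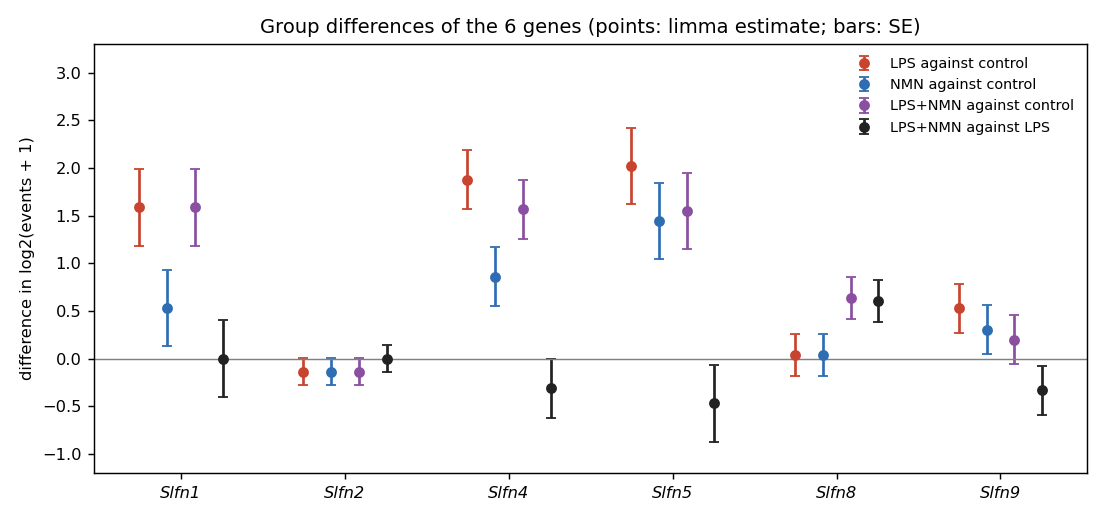
Differences in log2(events + 1) for the 6 Schlafen genes (horizontal axis) in 4 comparisons; points are limma estimates and bars their SE. Slfn4 lies at 1.88 with LPS, the only estimate past the adjusted threshold, and at -0.31 in LPS+NMN against LPS, and the 3 estimates of Slfn2 against control are all -0.14.

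Genes of interferon and LPS signalling were read from the same catalogues. Irf7, the transcription factor that amplifies type I interferon responses, had 7 to 9 events in control, 15 to 16 with LPS, 15 to 16 with NMN and 16 in each LPS+NMN library. Irf7 was the only one of 15 tested genes of type I interferon signalling to pass, in all 3 comparisons with control. Of all genes, 0.3% passed with LPS, 0.231% with NMN and 0.334% with LPS+NMN. Of these 15, 12 were higher and 1 lower with LPS. None of Irf9, Stat2 and Ifnar1 passed: in control and LPS, respectively, Irf9 had 3 to 9 and 4 to 6 events, Stat2 2 and 2 to 4, and Ifnar1 3 to 9 and 3 to 7. The receptor gene Ifnar2 had 5 events and the TLR4 adaptor gene Ticam1 had 2 in every library. Tlr4, the LPS receptor gene, had 3 events in every control library, 2 to 3 with LPS, 2 with NMN and 2 to 3 with LPS+NMN, and none of 16 tested genes of LPS sensing passed in any of the 3 comparisons with control.

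Of 35 interferon-stimulated genes tested, 4 passed with LPS, where 0.3% of all genes passed. All 4 had more events: Ifit3b, of the IFIT antiviral family, Zbp1, a sensor of nucleic acids, Mx2, an antiviral GTPase, and Oasl2, a relative of the oligoadenylate synthetases. With LPS 26 of the 35 were higher and 4 lower, with a median of 0.38 where all genes had 0. With NMN 3 passed (Ifit3b, Zbp1 and Oasl2, against 0.231% of all genes), 27 were higher and 5 lower. With LPS+NMN 3 passed (Ifi206, a member of the interferon-inducible DNA-sensor family, Ifit3b and Zbp1, against 0.334%), 22 were higher and 7 lower. Zbp1 had 0 events in control and 2 in each treated group, the levels that Slfn1 and Ifit3b also had in control and LPS.

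Genes flanking the cluster that are named here did not pass in any comparison. Unc45b, Nle1 and Ap2b1 were listed in 11, 12 and 12 libraries, and the lowest limma adjusted p among them was 0.377, for Ap2b1. Ap2b1 had 3 events in every control and LPS+NMN library and 4 in every LPS and NMN library, so LPS and NMN did not overlap control. Unc45b and Nle1 overlapped control in every treated group. Within the cluster Slfn3 had 3 events in every control, LPS and NMN library and 3 to 5 with LPS+NMN, and Slfn14 was not listed.

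The profile of each member over the 12 libraries was set beside those of 9684 genes by Pearson's r of log2(events + 1), as a description over libraries that share groups and depth. Slfn4 was most like Taf3 (r = 0.885), Smu1 (0.874) and Pilra (0.873), and Slfn5 most like Pyroxd2 (0.928), Ifit1bl2 (0.912) and Zdhhc24 (0.888). Slfn1 was most like Arnt2 (0.931), and Slfn8 most like Clec4a2 (0.916), Flt3l (0.894) and Snx15 (0.882). Slfn9 was most like Zcchc8 (0.884). Slfn2 had several matches at r = 1, such as Lnpk, in which control 1 alone differs from the other libraries. Within the family the highest r was that of Slfn4 with Slfn5, 0.788.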

How the data were processed

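RNA of 12 BV-2 libraries was sequenced, and the authors deposited for each a catalogue of transcript events; per the file headers, a line holds an event's identifier, type, gene, position, pattern and strand. These listings are another kind of value than a count of reads or a level. As tools, the submitters' processing notes list HOMER, MACS2 2.1.0 and BWA 0.7.12, and as build GRCm38. Not given in the sources used here are what assembled the catalogues and whether the libraries keep strand.

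Partner lines of events (those ending in OFF) and 9998 repeated lines were dropped, and distinct events were counted per gene; exact and approximate listings counted separately. limma 3.58.1 in R 4.3.3 (trend and robust moderation) was fitted to log2(events + 1) with 4 group means and 8 residual degrees of freedom. Of 14275 genes, 11671 with at least 1 event in 3 libraries and not constant over all 12 were tested, with Benjamini-Hochberg adjustment and a threshold of 0.05. All 6 Schlafen genes passed this filter. Slfn1 and Slfn5, listed in 0 and 1 control libraries, passed it only through the treated libraries. The fit was tested on simulated data. Promoters came from RefSeq and exons from GENCODE M21, both on GRCm38. Positions of events are printed as the files give them.

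Groups and replicate numbers came from the sample titles. No label states that the 3 libraries of a group were grown as separate cultures, and the spread behind each p-value may therefore be technical. Members, lists and tests were chosen with earlier results of these data known. Named genes were the 6 members, other listed Schlafen genes, the signalling genes Irf7, Irf9, Stat2, Ifnar1, Ifnar2, Tlr4 and Ticam1, up to 4 passing genes per list and comparison, flanking genes, and the 3 most alike genes per member; some genes that this rule names are not reported here. Alternatives are given in the closing section.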

Additional observations from a re-analysis of the deposited data

How the results depend on the processing

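Over all alternatives, the differences of single Schlafen genes kept direction and side of the threshold in 772 cases, weakened below it in 8, rose past it in 6 and reversed in 20. Slfn4 with LPS was called in 15 of 24 alternatives, and Slfn4 with LPS+NMN in 3 of 24. The lost Slfn4 calls with LPS not given above were those with at least 5 events in 3 libraries (adjusted p = 0.0621, with fewer genes tested) and with only the groups compared (0.206, with fewer samples). The cause of these changes and of the others was not tested.

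In their deviations from the group means, the 18 pairs of same-numbered libraries correlated at -0.0271 to 0.022, so no shared deviation was seen. This cannot decide whether cultures were paired, because it sees only shifts shared across the event numbers of many genes. With the replicate block Slfn4 with LPS stayed at 1.88 (limma adjusted p = 0.033).

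Reversals, none called: with splicing events alone Slfn8 was -0.19 with LPS and with NMN; with first and last exons alone Slfn4 was -0.14 with LPS, -0.38 with NMN and with LPS+NMN, and 0.14 in the interaction; on the annotated strand alone Slfn2 was 0.53 in all 3 comparisons with control and -0.53 in the interaction. Leaving out each library in turn, Slfn8 ranged from -0.20 to 0.20 with LPS and with NMN, and in LPS+NMN against NMN Slfn5 ranged from -0.085 to 0.35 and Slfn9 from -0.30 to 0.034.

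Against control, 35 genes were called with LPS, 27 with NMN and 39 with both agents. It was 3, 3 and 10 with at least 5 events in 3 libraries (interaction 1 in place of 5), 1, 1 and 3 with only the groups compared, and 3, 2 and 8 with splicing events alone (interaction 0, LPS+NMN against LPS 1). Without trend and robust moderation 6 genes were called in LPS+NMN against LPS, 6 in LPS+NMN against NMN and 39 in the interaction. LPS+NMN against LPS gave 3 with a pseudocount of 0.5 and 1 on the annotated strand alone. Leaving out each library gave 32 to 55 in LPS against control, 27 to 44 in NMN against control, 32 to 55 in LPS+NMN against control and 0 to 11 in LPS+NMN against LPS, where the 11 came without LPS 1.

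The number of Schlafen genes called with LPS, 1, was 0 with at least 5 events in 3 libraries, only the groups compared, splicing events alone, first and last exons alone, or exact and approximate forms counted once. With LPS+NMN against control it was 1 in place of 0 when every pattern was its own event. Leaving out each library it ranged from 0 to 1 in each of the 3 comparisons with control. Counting forms once, every pattern as its own event, and the annotated strand alone were chosen after seeing the data. Depth cannot be read from these files, so no limit of detection can be given for any gene.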
